A study of Mus musculus with 9 samples.

Results

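The transcripts examined were those of 7 ligands of the TNF superfamily: Tnfsf11, Cd40lg, Lta, Ltb, Tnfsf14, Tnfsf8 and Tnf. They were taken by gene symbol from a table of 24594 genes in 9 libraries, and all 7 passed the low-value filter that 11569 genes passed. The libraries came from thymocytes with the OT-II T cell receptor, a transgenic receptor that recognizes a peptide of ovalbumin. The cells developed in mixed bone marrow chimeras, in which irradiated hosts were reconstituted for 4.7 weeks with OT-II control marrow, OT-II marrow deficient in Nr4a1 and Nr4a3 (double knockout, DKO), and non-transgenic wild-type marrow.

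WT hosts were BoyJ mice by their labels and express no ovalbumin. The study's methods also describe WT mice bred as F1 from the same cross as the RIPmOVA mice, without saying which served as hosts here, so that a difference in host strain cannot be told apart from the antigen. RIPmOVA hosts were F1 mice of BoyJ and a transgenic line in which the rat insulin promoter drives a membrane-bound ovalbumin, so that OT-II cells can meet the antigen in the thymus. The control donors (Nr4a1+/+ Nr4a3+/+) were F1 mice of the OT-II line and BoyJ, and the DKO donors (Nr4a1-/- Nr4a3-/-) were on C57BL/6, so that the 2 genotypes also differed in donor background, and these 2 differences cannot be told apart. Every group was sorted as CD4+ CD8- CD69+ Vα2+ Vβ5+ semimature thymocytes, and control and DKO cells were separated by congenic marker. There were n = 2 libraries of OT-II cells from WT hosts, n = 3 of DKO cells from WT hosts, n = 2 of OT-II cells from RIPmOVA hosts and n = 2 of DKO cells from RIPmOVA hosts. OT-II and DKO libraries with the same number came from the same mouse, and the third DKO library from WT hosts had no partner.

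Thymocytes and the epithelium of the thymic medulla depend on each other, an exchange known as thymic crosstalk. Ligands of the TNF superfamily on positively selected CD4 single-positive cells engage receptors on medullary epithelial cells and drive their growth and maturation, largely through NF-κB. Tnfsf11 encodes RANKL, the ligand of RANK. Cd40lg encodes the ligand of CD40. Lta and Ltb together encode the membrane lymphotoxin trimer that binds the lymphotoxin β receptor, a receptor shared with LIGHT, the product of Tnfsf14. Tnfsf8 encodes the ligand of CD30, and Tnf encodes tumour necrosis factor.

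Values are RPKM, that is, reads scaled to exon length and library depth. Recovered depth was 15520000 to 25050000 reads per library, at which a count of 3 reads in a gene of 1 kb equals 0.12 to 0.193 RPKM. The libraries held the markers of the sorted cell: the summed RPKM of 7 markers of CD4 single-positive thymocytes lay between 1320 and 1503. Gene-level RPKM did not check the DKO label, because Nr4a1 averaged 76.0 ± 14.3 RPKM (SD, n = 3) in the DKO and 73.4 ± 17.9 (n = 2) in the OT-II libraries of WT hosts, and 258 ± 33.5 (n = 2) against 244.6 ± 21.9 (n = 2) in RIPmOVA hosts. Nr4a3 averaged 15.3 ± 1.70 RPKM in the DKO and 4.69 ± 1.38 in the OT-II libraries of RIPmOVA hosts. The sum over the exons of a gene cannot say whether the deleted part was read, and these libraries are therefore called DKO-labelled. Gadd45b, a gene induced by T cell receptor signalling, averaged 1.98 and 1.68 RPKM in OT-II and DKO-labelled cells of WT hosts, and 47.1 and 43.3 in those from RIPmOVA hosts.

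Ltb, Tnf and Lta lie side by side on chromosome 17 of GRCm38. Ltb lies at chr17:35194439-35196320 on the plus strand, Tnf at chr17:35199381-35202007 and Lta at chr17:35203165-35205351 on the minus strand, with 3061 bases between Ltb and Tnf and 1158 between Tnf and Lta. Tnfsf14 lies on the same chromosome at chr17:57189492-57194177, Tnfsf11 at chr14:78277445-78308043, Tnfsf8 at chr4:63831308-63861347 (minus strand for each) and Cd40lg at chrX:57212143-57224042 on the plus strand. All 7 are protein-coding. Lta and Ltb each overlap a microRNA gene on their own strand (Mir6974 and Mir6973a). The promoters of the 3 neighbours are shown because Lta rose in RIPmOVA hosts while neither Ltb nor Tnf passed the test, and that of Tnfsf8 because it is the ligand gene called in both a host and a genotype comparison. They are RefSeq sequences of GRCm38.p6 before the start site, 5′ to 3′ on the strand of the gene, without the bases that GENCODE vM21 counts as transcribed, and capitals mark matches to the searched motifs.
Lta, chr17:35205352-35205601, minus strand: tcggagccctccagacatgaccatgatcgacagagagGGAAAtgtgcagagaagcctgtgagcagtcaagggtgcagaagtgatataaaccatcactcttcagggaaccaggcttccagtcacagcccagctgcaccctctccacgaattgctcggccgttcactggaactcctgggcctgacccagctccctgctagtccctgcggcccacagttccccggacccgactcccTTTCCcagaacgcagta
Tnf, chr17:35202008-35202257, minus strand: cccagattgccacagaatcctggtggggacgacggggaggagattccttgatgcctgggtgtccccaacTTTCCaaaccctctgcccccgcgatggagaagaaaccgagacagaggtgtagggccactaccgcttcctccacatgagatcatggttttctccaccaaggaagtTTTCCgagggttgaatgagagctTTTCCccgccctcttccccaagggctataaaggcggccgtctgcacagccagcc
Ltb, chr17:35194257-35194438, plus strand: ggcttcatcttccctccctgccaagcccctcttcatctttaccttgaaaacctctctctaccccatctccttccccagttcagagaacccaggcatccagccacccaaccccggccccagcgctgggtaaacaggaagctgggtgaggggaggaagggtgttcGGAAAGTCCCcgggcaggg
Tnfsf8, chr4:63861348-63861534, minus strand: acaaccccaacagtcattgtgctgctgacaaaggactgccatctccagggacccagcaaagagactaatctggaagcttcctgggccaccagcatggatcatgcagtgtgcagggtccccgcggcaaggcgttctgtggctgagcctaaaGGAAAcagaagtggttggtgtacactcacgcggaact

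Promoter sequence was at hand for 6 of the 7 genes, not for Cd40lg. Both strands of the 250 bases before each start site were searched for 4 motifs: the NBRE element AAAGGTCA, to which NR4A proteins bind, the AP-1 element TGANTCA, the NFAT core GGAAA, and the κB element GGGNNTTCC or GGGNNTTTC. NBRE matched in none of the 6, against 1.34% of 32851 mouse promoter windows of the same length. AP-1 matched 1 time in Tnfsf14, 160 bases before the start, against 6.75% of windows. The κB element matched 2 times in Ltb, against 8.14% of windows, and the match nearer to the start, which overlaps no other motif, lies in bases counted as transcribed and not printed. The other κB match of Ltb overlaps its NFAT match. NFAT, a short motif present in 55.6% of windows, matched in all 6: 3 times in Tnf and in Tnfsf14, 2 times in Lta and 1 time in Tnfsf11, Ltb and Tnfsf8. The letters alone do not say whether a factor binds there.

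The 7 ligand genes spanned a wide range of levels. Averaged over the 9 libraries, Cd40lg had 131 RPKM, Ltb 121, Lta 32.0, Tnfsf11 28.8, Tnfsf8 13.1, Tnf 8.58 and Tnfsf14 2.15. The order between genes is uncertain for Ltb and Tnf. For these, the exon length in the table (3482 and 3046 bases) equals the sum of all distinct annotated exons, with overlapping exons of different transcripts counted separately, while the exons without overlap cover 1516 and 1639 bases. If each read was counted 1 time, the mean level per length without overlap would be 278 RPKM for Ltb and 15.9 for Tnf. The length does not enter the comparison of 1 gene between groups. Reads per library ranged from 6695 to 10386 for Ltb and from 21 to 296 for Tnfsf14.

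**Figure D1:**
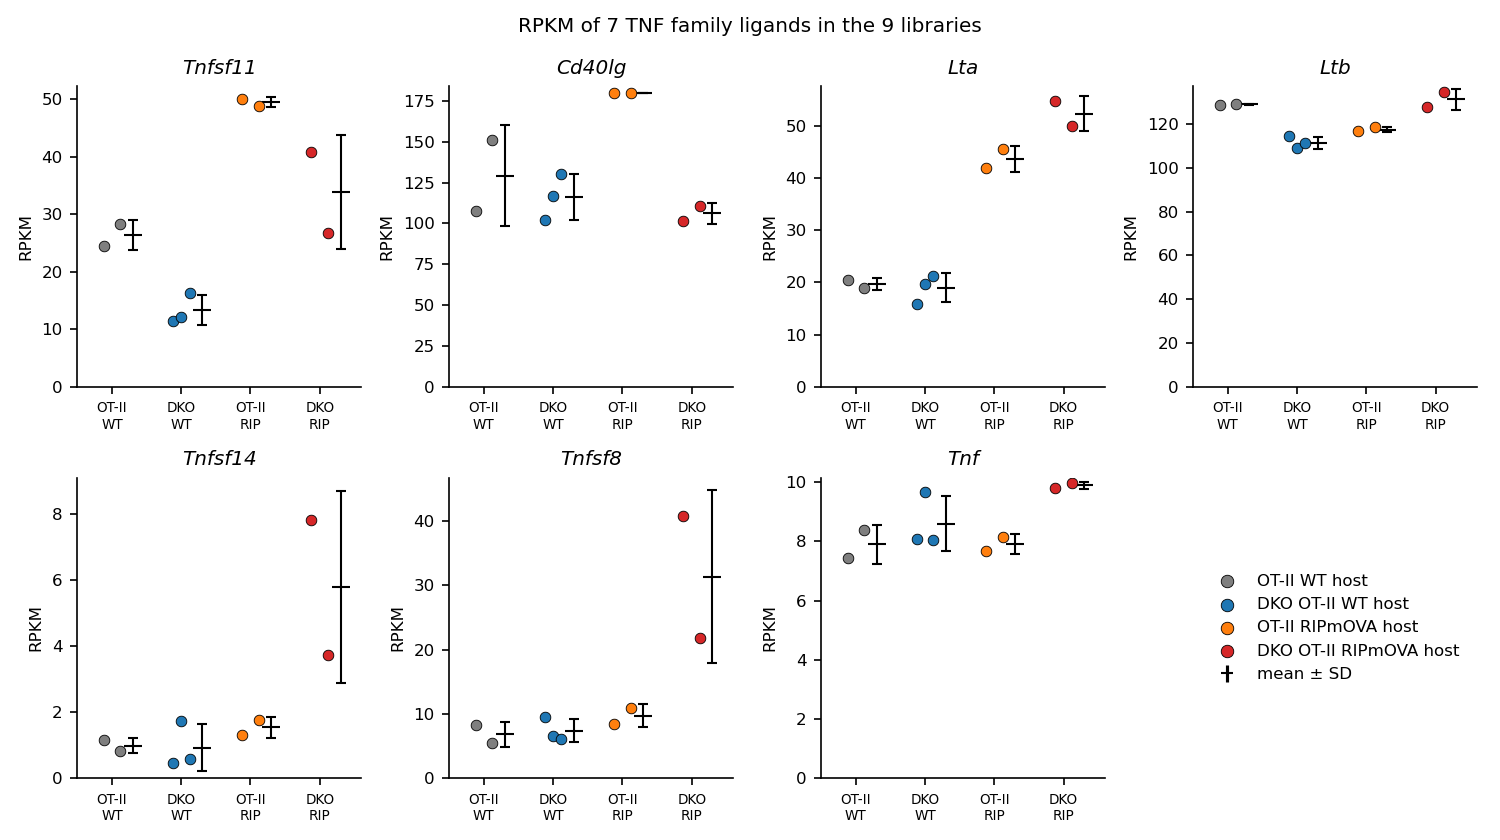
RPKM (linear axis, from 0) of each ligand gene in every library, as points by group, with the mean and SD beside them. WT and RIP on the horizontal axis stand for WT and RIPmOVA hosts. Lta is at least 41.95 RPKM in the 4 libraries from RIPmOVA hosts and at most 21.3 in the 5 from WT hosts, and Tnfsf8 and Tnfsf14 are highest in the 2 DKO-labelled libraries from RIPmOVA hosts.

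The first question was which ligand transcripts differ where OT-II cells meet their antigen, that is, between RIPmOVA and WT hosts. Lta rose in both genotypes, and in DKO-labelled cells Tnfsf11, Tnfsf14 and Tnfsf8 also rose. Calls required a limma p, adjusted over 11569 genes by Benjamini-Hochberg, of at most 0.05, together with a log2 fold change of at least 1 in either direction. In OT-II cells 1 of the 7 ligands was called, beside 1.23% of all genes tested, and in DKO-labelled cells 4 of 7, beside 1.68%. All were higher in RIPmOVA hosts, where 1.05% and 1.52% of all genes were called higher. The median log2 fold change of the 7 ligands was 0.49 in OT-II cells, against -0.02 over all genes, and 1.30 in DKO-labelled cells, against 0.03.

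Lta, the secreted ligand of the TNF receptors and a subunit of membrane lymphotoxin, had 20.5 and 18.9 RPKM in OT-II cells from WT hosts and 42.0 and 45.5 in those from RIPmOVA hosts. DKO-labelled libraries had 15.9, 19.7 and 21.3 RPKM in WT hosts and 54.7 and 49.9 in RIPmOVA hosts. Every library from a RIPmOVA host lay above every library from a WT host, in either genotype. The log2 fold change was 1.13 (SE 0.13, adjusted p = 0.0038) in OT-II and 1.45 (SE 0.12, adjusted p = 0.00053) in DKO-labelled cells. Group means ran from 52.3 ± 3.33 RPKM in DKO-labelled cells of RIPmOVA hosts through 43.7 ± 2.48 in OT-II cells of RIPmOVA hosts to 19.7 ± 1.11 in OT-II and 19.0 ± 2.76 in DKO-labelled cells of WT hosts, and the last 2 groups overlapped. Without the second OT-II library from RIPmOVA hosts the call in OT-II cells was lost (1.07, adjusted p = 0.0515).

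Tnfsf11 (RANKL) had 24.5 and 28.2 RPKM in OT-II cells from WT hosts and 50.025 and 48.8 in those from RIPmOVA hosts. DKO-labelled libraries had 11.5, 12.2 and 16.4 RPKM in WT hosts and 40.9 and 26.8 in RIPmOVA hosts. Groups did not overlap between hosts in either genotype, but neither did those of Ltb, which was called in neither genotype. With so few libraries a lack of overlap alone therefore says little. The widest spread of Tnfsf11 within a group was that of the DKO-labelled libraries from RIPmOVA hosts. The log2 fold change was 1.30 (SE 0.19, adjusted p = 0.008) in DKO-labelled cells, which was called, and 0.90 (SE 0.21, adjusted p = 0.073) in OT-II cells, which was not. These changes were not shown to differ between genotypes, as the interaction was 0.40 (95% CI -0.24 to 1.04, adjusted p = 0.62). Without the first DKO-labelled library from RIPmOVA hosts the change in DKO-labelled cells was 1.00 with an adjusted p of 0.0546.

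Tnfsf8, the CD30 ligand gene, had 8.24 and 5.45 RPKM in OT-II cells from WT hosts and 8.47 and 11.0 in those from RIPmOVA hosts. DKO-labelled libraries had 9.50, 6.63 and 6.09 RPKM in WT hosts and 40.8 and 21.8 in RIPmOVA hosts. The 2 DKO-labelled libraries from RIPmOVA hosts were both above all 7 others. In DKO-labelled cells the log2 fold change between hosts was 1.96 (SE 0.29, adjusted p = 0.0075), and in OT-II cells it was 0.49 (SE 0.31, adjusted p = 0.53). Without the first DKO-labelled library from RIPmOVA hosts the former was 1.52 (adjusted p = 0.0521).

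Tnfsf14 (LIGHT) was the least abundant of the 7. It had 1.15 and 0.821 RPKM in OT-II cells from WT hosts and 1.31 and 1.77 in those from RIPmOVA hosts. DKO-labelled libraries had 0.466, 1.74 and 0.584 RPKM in WT hosts and 7.83 and 3.72 in RIPmOVA hosts. As for Tnfsf8, these 2 last libraries were the highest of the 9. The log2 fold change between hosts was 2.16 (SE 0.40, adjusted p = 0.022) in DKO-labelled and 0.46 (SE 0.44, adjusted p = 0.69) in OT-II cells. The call was lost without the first DKO-labelled library from RIPmOVA hosts (1.67, adjusted p = 0.216), without the first from WT hosts (1.93, adjusted p = 0.0748) or without the third from WT hosts (2.01, adjusted p = 0.0925).

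Cd40lg, Ltb and Tnf were called in neither genotype. Cd40lg had 108 and 151 RPKM in OT-II cells from WT hosts and 180 in each of the 2 libraries from RIPmOVA hosts, which is 0.50 on the log2 scale (SE 0.16, adjusted p = 0.19). DKO-labelled libraries had 102, 117 and 130 RPKM in WT hosts and 102 and 111 in RIPmOVA hosts, which overlapped (-0.13, SE 0.15, adjusted p = 0.67).

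Ltb, the subunit that anchors lymphotoxin in the membrane, stayed within a narrow range of 109 to 135 RPKM. In OT-II cells the log2 fold change between hosts was -0.13 (95% CI -0.31 to 0.04, adjusted p = 0.48), and in DKO-labelled cells it was 0.24 (95% CI 0.08 to 0.39, adjusted p = 0.12). Tnf had 7.45 and 8.38 RPKM in OT-II cells from WT hosts and 7.68 and 8.15 in those from RIPmOVA hosts, and the 95% CI of its log2 fold change was -0.27 to 0.28. DKO-labelled libraries had 8.09, 9.67 and 8.05 RPKM of Tnf in WT hosts and 9.80 and 9.98 in RIPmOVA hosts (95% CI -0.05 to 0.45). For both genes a change as large as the log2 limit of 1 lay outside these intervals in either genotype. The neighbours Lta and Tnf, whose genes lie 1158 bases apart, thus had host differences of 1.13 and 0.00 in OT-II cells and of 1.45 and 0.20 in DKO-labelled cells on the log2 scale, although the difference between the 2 genes was not tested.

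**Figure D2:**
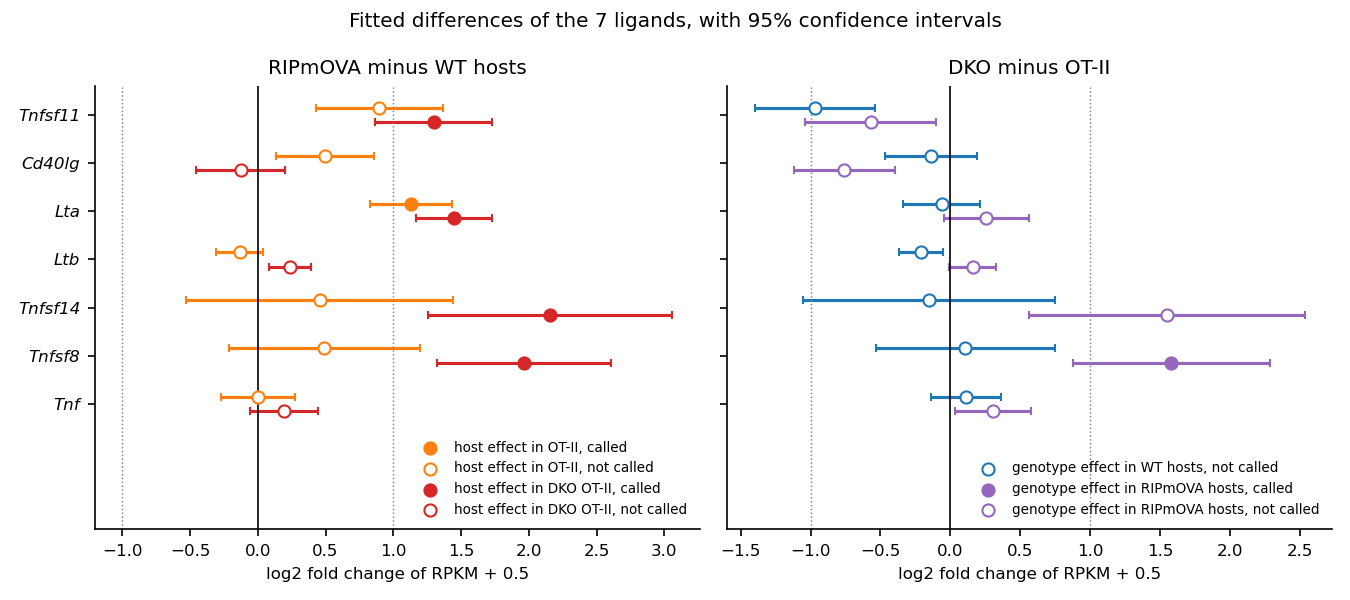
Log2 fold changes of RPKM + 0.5 with 95% confidence intervals from limma, between hosts within each genotype (left) and between genotypes within each host (right). Filled points passed the test and the fold limit, which the dotted lines at -1 and 1 mark. Lta is filled in both genotypes on the left, Tnfsf11, Tnfsf14 and Tnfsf8 in DKO-labelled cells, and Tnfsf8 is the 1 filled point on the right.

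Some markers of other cells moved with the host. In OT-II cells the sums of thymic epithelial and of B cell markers overlapped between hosts. In bulk RNA, a different share of cells and a different amount of RNA per cell cannot be told apart. Of 8 dendritic and myeloid markers 4 passed the filter, and the sum of the 8 was 12.2 to 26.2 RPKM in OT-II and 10.1 to 11.9 in DKO-labelled cells from WT hosts, but 46.3 to 60.3 and 30.5 to 35.5 in RIPmOVA hosts. Cd74, the invariant chain of MHC class II, averaged 12.7 and 37.3 RPKM in OT-II cells of WT and RIPmOVA hosts and 8.08 and 27.5 in DKO-labelled cells, while Itgax, the defining dendritic integrin, was at most 0.158 RPKM in any library. Lyz2 averaged 4.59 ± 4.17 and 13.6 ± 7.26 RPKM in OT-II cells of WT and RIPmOVA hosts, and 1.36 and 2.47 in DKO-labelled cells. H2-Aa averaged 0.505 and 1.37 RPKM in OT-II cells of these hosts, and 0.115 and 0.21 in DKO-labelled cells. Xcr1 had the opposite order of genotypes in RIPmOVA hosts, at 0.361 RPKM in OT-II and 1.18 in DKO-labelled cells. Lyz2, H2-Aa and Xcr1 were called in no comparison. Of 8 thymic epithelial markers 2 passed the filter, and the sum of the 8 was 5.31 to 8.94 RPKM in WT hosts, 7.73 to 10.3 in OT-II and 11.0 to 14.5 in DKO-labelled cells of RIPmOVA hosts. Epcam averaged 2.47 ± 0.206 and 7.99 ± 3.13 RPKM in DKO-labelled cells of WT and RIPmOVA hosts, while Foxn1, the defining epithelial factor, was at most 0.82 and Aire at most 0.339 RPKM. Among B cell markers, Cd79b averaged 0.748 and 1.557 RPKM in OT-II cells of WT and RIPmOVA hosts and 0.643 and 2.31 in DKO-labelled cells (1.35 on the log2 scale, adjusted p = 0.13), Cd79a averaged 3.14 to 4.89 per group, and Ms4a1 had at most 1.005 in any library. The 3 regulatory T cell markers summed to 1.89 to 7.14 RPKM in WT and 8.80 to 24.98 in RIPmOVA hosts. Foxp3 averaged 0.39 and 2.61 ± 0.993 RPKM in OT-II cells of WT and RIPmOVA hosts, and 0.0517 and 0.0845 ± 0.0106 in DKO-labelled cells. Between hosts Foxp3 was called in neither genotype, and the other 2 markers were called higher in both. In DKO-labelled cells the sum thus rose through those 2 markers. The part of these cells in the ligand values was not tested.

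The second question was whether the ligands differ between DKO-labelled and OT-II cells of the same host. In RIPmOVA hosts 1 of 7 was called, Tnfsf8, which was higher in DKO-labelled cells, beside 1.07% of all genes (0.51% higher). By adjusted p alone there were 2, Tnfsf8 and Cd40lg, beside 2.21% of all genes. In WT hosts limma called 0 of 7, beside 0.0605% of all genes, with 2 of 7 at an unadjusted p under 0.05 (7.89% of all genes) and 0 of 7 called by voom. The libraries of the 2 genotypes did not overlap for any of the 7 ligands in RIPmOVA hosts, beside 59% of all genes, and for 2 of 7, Tnfsf11 and Ltb, in WT hosts, beside 20.8%. A lack of overlap was thus common among all genes with so few libraries.

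Tnfsf8 averaged 31.3 ± 13.45 RPKM in DKO-labelled and 9.715 ± 1.76 in OT-II cells of RIPmOVA hosts, with a log2 fold change of 1.58 (SE 0.31, adjusted p = 0.038). Within the first RIPmOVA mouse the DKO-labelled library was higher by 2.20 on the log2 scale, and within the second by 0.96. In WT hosts the groups overlapped, with 7.41 ± 1.83 RPKM in DKO-labelled and 6.85 ± 1.97 in OT-II cells (0.11, SE 0.28, adjusted p = 0.96). The call in RIPmOVA hosts lay close to the limit: with the mouse as a block the adjusted p was 0.0597 at the same fold, and it was also lost without the first DKO-labelled library (1.14, adjusted p = 0.145), without the first or the second OT-II library (1.40 and 1.76, adjusted p = 0.209 and 0.129) and, at the same fold, without the second or the third DKO-labelled library from WT hosts (adjusted p = 0.0578 and 0.0618). Tnfsf14 averaged 5.78 ± 2.91 RPKM in DKO-labelled and 1.54 ± 0.321 in OT-II cells of RIPmOVA hosts, a difference of 1.55 (SE 0.44, adjusted p = 0.10) that was not called.

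Cd40lg had the opposite order. DKO-labelled cells of RIPmOVA hosts averaged 106 ± 6.25 RPKM and OT-II cells 179.9 ± 0.103, a log2 fold change of -0.76 (SE 0.16, adjusted p = 0.048) that passed the test but not the fold limit. The DKO-labelled library was lower by 0.82 and 0.70 on the log2 scale in the 2 RIPmOVA mice, and by 0.07 and 0.37 in the 2 WT mice. In WT hosts the groups overlapped, at 116 ± 14.1 and 129 ± 30.7 RPKM (-0.14, adjusted p = 0.88). Of the 4 groups the highest was that of OT-II cells in RIPmOVA hosts, and the other 3 overlapped.

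Tnfsf11 was lower in the DKO-labelled library of each of the 4 mice that gave both genotypes. The difference on the log2 scale was -1.06 and -1.18 in the WT mice and -0.29 and -0.85 in the RIPmOVA mice. Group means were 13.3 ± 2.64 RPKM in DKO-labelled and 26.4 ± 2.65 in OT-II cells of WT hosts, and 33.8 ± 9.95 and 49.4 ± 0.875 in RIPmOVA hosts. Neither passed the test after adjustment, with -0.97 (SE 0.19, adjusted p = 0.13) in WT and -0.57 (SE 0.21, adjusted p = 0.17) in RIPmOVA hosts. In the order of the group means, DKO-labelled cells of RIPmOVA hosts and OT-II cells of WT hosts were neighbours whose libraries overlapped.

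Lta, Ltb and Tnf were not called between genotypes. Lta was at 0.26 (SE 0.13, adjusted p = 0.30) on the log2 scale in RIPmOVA and at -0.06 (SE 0.12, adjusted p = 0.95) in WT hosts. Tnf was at 0.30 (SE 0.12, adjusted p = 0.20) and at 0.11 (SE 0.11, adjusted p = 0.87), with DKO-labelled above OT-II in each of the 4 mice by 0.11 to 0.33. Ltb was at 0.16 (SE 0.08, adjusted p = 0.26) in RIPmOVA and at -0.21 (SE 0.07, adjusted p = 0.46) in WT hosts.

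**Figure D3:**
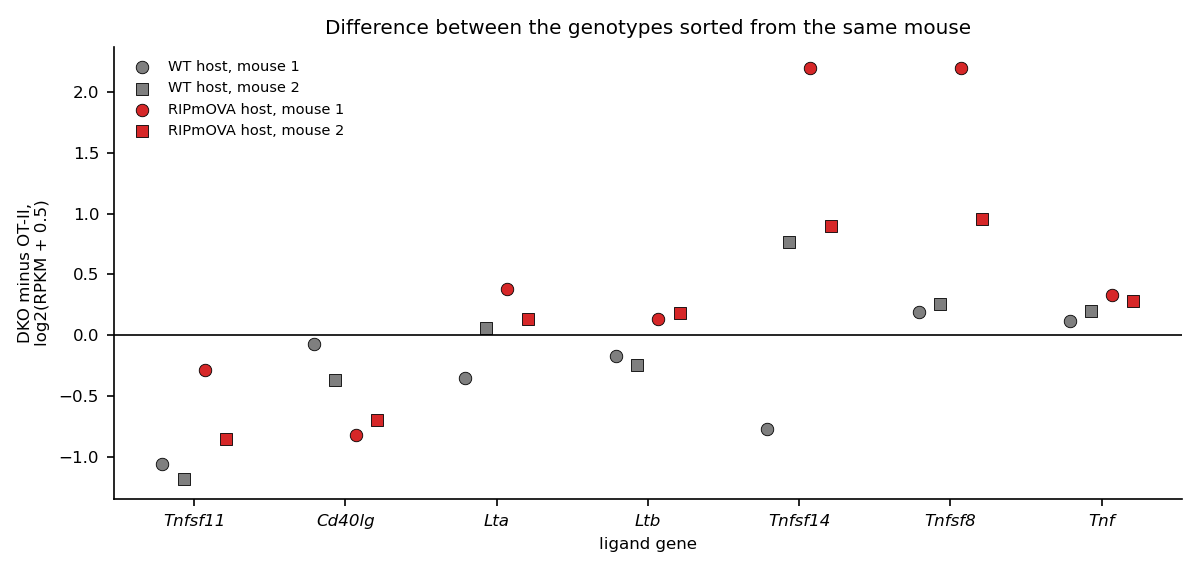
Difference between the DKO-labelled and the OT-II library of the same mouse, in log2(RPKM + 0.5), for the 4 mice that gave both genotypes. Tnfsf11 and Cd40lg lie below 0 and Tnfsf8 and Tnf above 0 in all 4 mice, and Tnfsf8 is 0.96 and 2.20 in the RIPmOVA mice but 0.19 and 0.26 in the WT mice.

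The host difference was not shown to depend on genotype for any of the 7. The interaction, the host difference in DKO-labelled cells minus that in OT-II cells, passed the limma test in 0 of 7 ligands, beside 0.0173% of all genes, with 4 of 7 at an unadjusted p under 0.05 (9.32% of all genes) and 0 of 7 by voom. The log2 interaction was 1.70 for Tnfsf14 (95% CI 0.36 to 3.04, adjusted p = 0.49), 1.47 for Tnfsf8 (95% CI 0.52 to 2.43, adjusted p = 0.46) and -0.62 for Cd40lg (95% CI -1.11 to -0.13, adjusted p = 0.49).

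A maturation gene and background reads were also compared between the groups. S1pr1, the receptor for egress from the thymus, had 103 ± 10.7 RPKM there and 38.2 to 46.8 on average in the other groups, and was called in both comparisons that involve them (1.13 between hosts, adjusted p = 0.0012, and 1.26 between genotypes, adjusted p = 0.002), although the former was 0.96 with median-of-ratios scaling. The RPKM of 1455 sensory receptor genes, which thymocytes are not known to use, summed to 472 and 632 there, to 427 and 129 in OT-II and 111 to 439 in DKO-labelled cells of WT hosts, and to 200.3 and 73.0 in OT-II cells of RIPmOVA hosts. As a share of reads (RPM, not scaled to gene length) the groups overlapped, with 1041 and 1481 RPM there and 292.5 to 1133 in the other 7 libraries. With the log2 of the RPKM sum as a covariate, Lta and Tnfsf11 were still called between hosts in DKO-labelled cells (1.45 and 1.48, adjusted p = 0.00985 and 0.0323), and Tnfsf8 and Tnfsf14 were not (1.97 and 1.82, adjusted p = 0.0701 and 0.19). Tnfsf8 and S1pr1 lost their calls between genotypes (1.59 and 1.24, adjusted p = 0.318 and 0.0619). Over all genes the covariate lowered the calls from 194 to 87 between hosts in DKO-labelled cells. Between genotypes in RIPmOVA hosts it lowered them from 124 to 20. A lost call is thus not particular to these genes. The fit held no term for maturation, whose part in these differences was not tested, and that of background reads was not tested beyond it.

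The other genes of the pathway were counted as whole lists. Of 11 other TNF superfamily ligands 5 passed the filter. Fasl, the ligand of the death receptor Fas, rose in both genotypes, from 2.89 to 9.41 RPKM on average in OT-II cells (1.53, SE 0.23, adjusted p = 0.013) and from 1.08 to 6.925 in DKO-labelled cells (2.24, SE 0.21, adjusted p = 0.00077). Tnfsf4, the ligand of OX40, rose in OT-II cells, from 0 and 0.245 RPKM to 3.13 and 3.97 (2.72, SE 0.39, adjusted p = 0.012). In DKO-labelled cells Tnfsf4 had at most 0.135 RPKM in WT hosts and 0.497 and 1.14 in RIPmOVA hosts (1.22, adjusted p = 0.12). Tnfsf10, which encodes TRAIL, had the highest mean of the list over the 9 libraries, at 4.53 to 5.335 RPKM per group, although Fasl was higher in RIPmOVA hosts, and it was not called. The other 2 that passed the filter, Tnfsf9 and Tnfsf15, were called in no comparison. The call of Fasl in OT-II cells was lost without the second OT-II library from RIPmOVA hosts (1.28, adjusted p = 0.0975) or the first from WT hosts (1.53, adjusted p = 0.057), and that of Tnfsf4 without the first or the second OT-II library from RIPmOVA hosts (2.87 and 2.57, adjusted p = 0.125 and 0.129).

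Of the 8 receptors of the 7 ligands, 5 did not pass the filter in these thymocytes. RANK (Tnfrsf11a) had at most 0.958 RPKM in any library, CD30 (Tnfrsf8) 0.938, CD40 0.58, the lymphotoxin β receptor (Ltbr) 0.188 and the RANKL decoy osteoprotegerin (Tnfrsf11b) 0.163. The other 3 bind Tnf, soluble lymphotoxin or LIGHT. Tnfrsf1b, the second TNF receptor, had the highest mean over the 9 libraries, although Tnfrsf1a was higher in WT hosts (31.5 and 30.96 RPKM in OT-II and DKO-labelled cells). Tnfrsf1b rose in both genotypes, from 27.4 ± 2.35 to 91.8 ± 8.48 RPKM in OT-II (1.73, SE 0.18, adjusted p = 0.0021) and from 19.0 ± 0.102 to 55.0 ± 17.25 in DKO-labelled cells (1.47, SE 0.16, adjusted p = 0.002). Tnfrsf1a and Tnfrsf14 were called in no comparison.

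Of 13 adaptors and genes of non-canonical NF-κB signalling all passed the filter and 1 was called, Nfkb2, the precursor of the p52 subunit. Nfkb2 rose from 14.2 ± 3.83 to 37.55 ± 4.13 RPKM in OT-II (1.39, SE 0.20, adjusted p = 0.012) and from 14.03 ± 0.917 to 34.45 ± 8.50 in DKO-labelled cells (1.25, SE 0.18, adjusted p = 0.0081). It lost the call in OT-II cells without the first or second library from RIPmOVA hosts (1.28 and 1.5, adjusted p = 0.132 and 0.0599), and in DKO-labelled cells without the first from RIPmOVA hosts (1.00, adjusted p = 0.0679). Birc2, a ubiquitin ligase of the receptor complex, had the highest mean over the 9 libraries, at 22.9 to 25.02 RPKM per group, although Nfkb2 was higher in RIPmOVA hosts, and it was not called. Of the 21 tested genes of these 3 lists, limma called 0 between genotypes in either host, with 6 in RIPmOVA and 3 in WT hosts at an unadjusted p under 0.05, and voom called 0. Over all genes 7.89% were under that limit in WT hosts. The share in RIPmOVA hosts is not given here, so the 6 cannot be set against it.

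**Figure D4:**
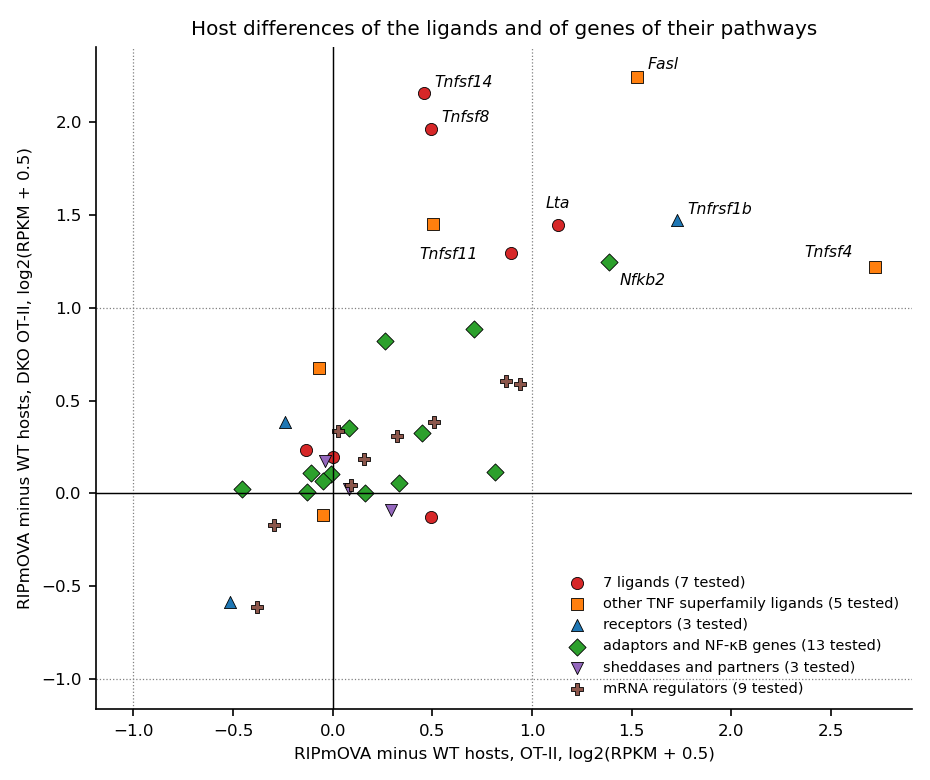
Log2 fold change between RIPmOVA and WT hosts in OT-II cells (horizontal) and in DKO-labelled cells (vertical) for the tested genes of each list, on the log2(RPKM + 0.5) scale. Genes called in at least 1 of the 2 are named, and dotted lines mark -1 and 1. Lta, Fasl, Tnfrsf1b and Nfkb2 exceed 1 on both axes, whereas Tnfsf8 and Tnfsf14 exceed it on the vertical axis alone.

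The genes whose values over the 9 libraries ran most like those of the 4 called ligands were looked up as a description. Likeness was the root mean square difference of log2(RPKM + 0.5) after each gene was centred on its own mean. Lta was closest to Nfkbid, which encodes a nuclear IκB protein (0.12), with mean RPKM of 38.7 and 37.1 in OT-II and DKO-labelled cells of WT hosts and 81.1 and 91.1 in those of RIPmOVA hosts. Next were 2310001H17Rik and Mxd1 (0.19 each). Tnfsf11 was closest to C1qtnf12 (0.13), followed by A430093F15Rik and Tnfrsf18, which encodes the receptor GITR (0.15 each). Tnfrsf18 averaged 44.8 and 24.1 RPKM in WT and 101 and 68.2 in RIPmOVA hosts. Tnfsf8 was closest to Plagl1 (0.23), Cxcr5 (0.24) and Pou2f2 (0.26). Tnfsf14 was closest to Chst3 (0.26), Plagl1 (0.31) and Tnfrsf25 (0.33). Apart from Tnfrsf25, these genes averaged 1.83 to 1.95 RPKM in DKO-labelled cells of RIPmOVA hosts and 0.02 to 0.53 in the other groups. They passed the filter mainly through the libraries in which Tnfsf8 and Tnfsf14 were highest, so that their likeness was partly fixed by the filter.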

How the data were processed

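Bulk RNA sequencing of sorted thymocytes gave 9 libraries. According to the methods, the authors made cDNA with a SMART-seq kit and libraries with Nextera XT, used STAR to align paired reads to mm10 with GENCODE vM17 transcripts, dropped the duplicates that Picard marked and summed exonic reads for each Entrez gene. The deposited unit is RPKM, obtained by the authors by scaling to exon length and depth. Strand use and the version of STAR are not given in the sources used here. Every column was tied to its sample by name, and 0 columns were of other samples.

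Depth was recovered from the steps between low values (RPKM under 1, exon length 200 to 1500), of which 100% came out as whole reads in every library within the rounding of the table, against 2.27% to 3.15% at the median of other depths tried. Floors cover counting error only, as the reads carry no molecular identifiers. Genes with at least 1 RPKM in at least 2 libraries were kept, and limma 3.58.1 (R 4.3.3) was run on log2(RPKM + 0.5) with 1 mean per group over all 9 libraries, moderated with an intensity trend and two-sided, with Benjamini-Hochberg adjustment. Fold changes are on that scale and understate those of low genes. The fit was tested on 5 simulated sets of 11569 genes with 200 changed genes each, of which it called 96.7%, with 2.51% of calls false. All planted changes exceeded the fold limit and lay in a single group, and genes at low levels were not changed. The noise was drawn independently, without differences in scaling or background reads, so that these rates need not hold for the real libraries. An exact permutation test of 2 against 2 libraries cannot go below p = 0.333 (0.1 for 2 against 3), so none was used. Python 3.11.15 with pandas 2.3.3 and matplotlib 3.10.9 was used otherwise. Libraries of a host come from separate mice, as labelled, and OT-II and DKO libraries of 1 number from the same mouse. The deviations of same-mouse libraries from their group means had correlations of 0.01 and -0.24 in WT hosts and -0.08 in RIPmOVA hosts, where 2 libraries per group fix 1 value for both mice.

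The 7 members and all lists were chosen with earlier results of these data known. In each list other than the marker lists, the genes called in at least 1 comparison and the one with the highest mean were named. A few genes that were not called were named as well. For each called member the 3 most alike genes were named. The markers named did not follow this rule. The marker lists were CD4 single-positive, double-positive or CD8 lineage, mature, regulatory T cell, thymic epithelial, B cell, dendritic and myeloid, NK and innate lymphoid, and erythroid. The values of 1 listed marker are not reported here. Alternatives were pseudocounts of 0.1 and 1, no filter or a filter at RPKM 5, median-of-ratios and quantile scaling, a fit to the compared libraries, no trend, calls on adjusted p alone, the mouse as a block, a sensory receptor covariate, and leaving out each library. Voom on the recovered reads was added after seeing the data.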

Additional observations from a re-analysis of the deposited data

Results flagged for a closer look

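Ltb moved in opposite directions between hosts in the 2 genotypes. OT-II libraries had 129 and 129 RPKM in WT hosts and 117 and 118 in RIPmOVA hosts, whereas DKO-labelled libraries had 114, 109 and 111 RPKM in WT hosts and 128 and 135 in RIPmOVA hosts. Seen between genotypes, DKO-labelled libraries were below OT-II libraries in both WT mice (by -0.17 and -0.25 on the log2 scale) and above them in both RIPmOVA mice (by 0.13 and 0.18). The interaction was 0.37 (SE 0.10) on the log2 scale. Its unadjusted limma p was 0.0055 and its adjusted p 0.44, so the difference did not pass the test. With median-of-ratios scaling the genotype difference in RIPmOVA hosts was -0.07 in place of 0.16, so the opposite directions between genotypes rest on the scaling of the libraries.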

How the results depend on the processing

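Of 102 counts of called ligands under an alternative, 88 were the same as reported or within 1.5 times. Many of the 88 were 0 under every setting, namely those between genotypes in WT hosts and those of the interaction. A count of 3 in place of 4 was also taken as the same. Of 674 log2 fold changes of single ligands, 642 kept their direction and side of the threshold, 19 lost a call and 13 changed direction. Most of the 674 belonged to values that were not called and had no call to lose. Of the called values of other listed genes 414 of 457 kept direction and call, and the other 43 lost the call without a change of direction. The cause of the differences below was not tested, apart from fewer libraries or genes where these were left out.

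Between genotypes in RIPmOVA hosts, where 1 ligand was called, the count was 2 on adjusted p alone and 0 with the sensory receptor covariate, with no filter, with no trend, with only the compared libraries and with the replicate block of mice. Leaving out 1 library at a time gave 0 to 1. Tnfsf8 then had adjusted p values of 0.318, 0.0504, 0.0707, 0.0567 and, with the block, 0.0597. Between hosts in DKO-labelled cells, with 4 called, the covariate gave 2 and leaving out a library 1 to 4, the lowest without the first library from RIPmOVA hosts. With no trend Tnfsf14 had an adjusted p of 0.051. Between hosts in OT-II cells, with 1 called, leaving out a library gave 0 to 1. The block changed no other call of a ligand, and it was not run between hosts, since each mouse has 1 host.

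Directions turned among values that were not called. Leaving out 1 library at a time, the genotype difference in WT hosts ranged from -0.38 to 0.11 for Cd40lg, -0.15 to 0.056 for Lta, -0.53 to 0.079 for Tnfsf14 and -0.17 to 0.39 for Tnfsf8, and the host difference of Tnf in OT-II cells from -0.078 to 0.082. That of Tnf was -0.033 with quantile scaling and -0.005 with voom, and that of Cd40lg in DKO-labelled cells 0.018 with the covariate. With median-of-ratios scaling Ltb was -0.075 between genotypes in RIPmOVA hosts and the interaction of Tnf was -0.031.

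Over all genes, median-of-ratios scaling moved the median difference from 0.04 to -0.17 between genotypes in RIPmOVA hosts and from 0.03 to -0.13 between hosts in DKO-labelled cells. The split of calls into higher and lower went from 59 and 65 to 65 and 149 (64 and 137 with quantile scaling) in the former and from 176 and 18 to 140 and 40 (164 and 47) in the latter. Counts over all genes ranged from 20 to 256 around 124 between genotypes in RIPmOVA hosts, from 2 to 100 around 7 in WT hosts, from 31 to 296 around 142 between hosts in OT-II cells, from 87 to 387 around 194 in DKO-labelled cells and from 0 to 159 around 2 for the interaction. The counts of 100, 296 and 159 came without the second OT-II library from WT hosts. Tnfsf14, at 21 to 296 reads, is the ligand whose precision depth limits most.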

Other observations

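Genes that act on these ligands after transcription were also listed. Of 5 sheddases and their partners, which release membrane ligands from the cell surface, 3 passed the filter. Adam10, the most abundant, averaged 36.3 to 41.1 RPKM per group, Adam17, the protease that sheds TNF, had 13.9 to 15.5 in every library, and Rhbdf2, a partner that Adam17 needs, had 2.09 to 3.95. All 9 regulators of AU-rich or stem-loop mRNAs passed the filter. Zfp36, whose product marks Tnf mRNA for decay, was the most abundant at 71.3 to 94.9 RPKM per group. Of these 12 tested genes limma called 0 in any comparison, with 4 of 12 at an unadjusted p under 0.05 between hosts in each genotype, 2 of 12 between genotypes in each host and 0 of 12 in the interaction, and voom called 0. Over all genes 7.89% were under that limit between genotypes in WT hosts and 9.32% in the interaction. For the other comparisons the share is not given here, so their counts cannot be set against it. Adam17 and Rhbdf2 were named here after their values were seen.

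Of the marker lists not described above, 4 of 5 double-positive or CD8 lineage markers passed the filter with sums of 77.8 to 122 RPKM over the 9 libraries. The 5 NK and innate lymphoid markers summed to 46.5 and 47.5 RPKM in DKO-labelled cells of RIPmOVA hosts and to 55.3 to 97.8 in the other groups, of which Id2 made up 44.4 to 93.7. Of 3 erythroid markers 2 were in the table, with sums of 0.145 to 14.1 RPKM in WT and 0.142 to 0.609 in RIPmOVA hosts.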
